A study of Homo sapiens with 4 samples.

Results

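The stathmin family was examined as the 4 genes STMN1, STMN2, STMN3 and STMN4, taken by gene symbol from the deposited gene table, the transcript tables and the extended annotation. They are 4 of 77973 genes and hold 27 of 392871 transcripts. Of these 27, 3 were unannotated, 1 each in STMN1, STMN2 and STMN4, and 18 had at least 1 read in some library. The unannotated STMN2 transcript ends early, in an exon inside the first intron, and is called the truncated transcript.

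RNA with poly(A) tails was sequenced as long PacBio reads in cortical neurons. These were made from KOLF2.1J, a widely used human line of induced pluripotent stem cells. All 4 libraries came from a derivative with doxycycline-inducible human NGN2, a factor that drives neuronal fate, and a dCas9-BFP-KRAB construct for CRISPR interference, in which a guide RNA directs a repressor to a promoter. The control library carried a non-targeting guide, the knockdown library a guide against the gene of TDP-43, the azacytidine library the non-targeting guide with 5 µM 5-azacytidine for 72 hours, and the last library both the TDP-43 guide and the drug. Guides were delivered by lentivirus and the cells were kept as puromycin-selected pools, not as clones. The labels give 2 possible days of harvest without saying which applies. With 1 library per group, every test compares the reads of 2 libraries and not the conditions, and no difference has a replicate check.

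Stathmins bind tubulin dimers and in this way limit the growth of microtubules, the polymers that give axons their shape. STMN1 is cytosolic and is found in many dividing and neural cells, while STMN2, STMN3 and STMN4 carry an N-terminal extension that is palmitoylated and anchors them to membranes. STMN2 is strongly expressed in neurons and supports axon growth and regrowth. TDP-43, an RNA-binding protein, normally prevents the use of a cryptic last exon in the first STMN2 intron, and loss of TDP-43 is known to yield a short STMN2 RNA at the expense of the full one. 5-Azacytidine is incorporated into nucleic acids and inhibits DNA methylation, which in mammals falls mainly on CG dinucleotides.

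The libraries held between 466337 and 767621 reads assigned to genes. TARDBP, the targeted gene, had 104 reads in the control, 72 in the knockdown, 73 in the azacytidine library and 43 with both, a log2 ratio of -0.67 for the knockdown without azacytidine and -0.73 with it. Both libraries labelled knockdown were thus lower in gene reads, but by less than the 2-fold limit used for calls. In reads of the main TARDBP transcript, ENST00000240185.8, the ratios were -0.85 and -1.10, the latter called lower. The 14 neuronal markers, which include STMN2 itself, summed to between 1557 and 2752 reads per library. The 6 cortical excitatory markers summed to between 154 and 220, with NEUROD6 at 0 throughout. The 14 markers of proliferating cells summed to 965 reads in the control, 1031 in the knockdown, 92 in the azacytidine library and 73 with both, and the 10 neural progenitor markers to 559, 555, 92 and 67 in the same order of libraries. The 8 pluripotency markers had 332, 434, 173 and 191 reads in that order. Libraries also differed in completeness, with full-length reads making up 28.2%, 23.3%, 35.7% and 31.2% of transcript reads in the same order. The share of gene reads assigned to no transcript was 36.1%, 41.5%, 31.9% and 39.6%. Levels are given in CPM, the usual per-library scale of reads, here relative to effective library size, a total corrected by trimmed means (TMM). Under this scaling, the median log2 ratio of all 13789 genes tested for the knockdown without azacytidine was 0.13. Total counts as library size gave -0.09 instead. Of the calls for the knockdown without azacytidine, 69.9% were higher under TMM and 46.2% under total counts. With azacytidine these shares were 53.1% and 43.1%, and for azacytidine in the presence of the knockdown 35.7% and 47.7%. Another scaling shifts all genes of a comparison alike, so the distance of a stathmin gene from the median of all genes does not depend on it.

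Together the 4 genes had 298 reads in the control library, 242 in the knockdown, 388 in the azacytidine library and 204 with both. In CPM this was 481, 353, 785 and 421. The family level was highest in the azacytidine library and lowest in the knockdown library. Per kilobase of transcript, STMN2 led with 96.1 CPM in the control, followed by STMN1 with 80.02, STMN4 with 66.8 and STMN3 with 11.3. The same order held in the knockdown library (77.3, 57.9, 42.7 and 8.29) and in the azacytidine library (144, 131, 97.2 and 38.9). In the library with both treatments STMN4 was first with 72.9, ahead of STMN2 with 67.2, STMN1 with 56.9 and STMN3 with 23.5. STMN3 was therefore the lowest stathmin in every library. STMN2 and STMN4 each had 64 reads, or 132 CPM, in the library with both treatments. Their order there comes only from their mean transcript lengths of 1964 and 1811 bases. In such bulk samples, fewer cells of a type and less RNA per cell cannot be told apart.

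**Figure D1:**
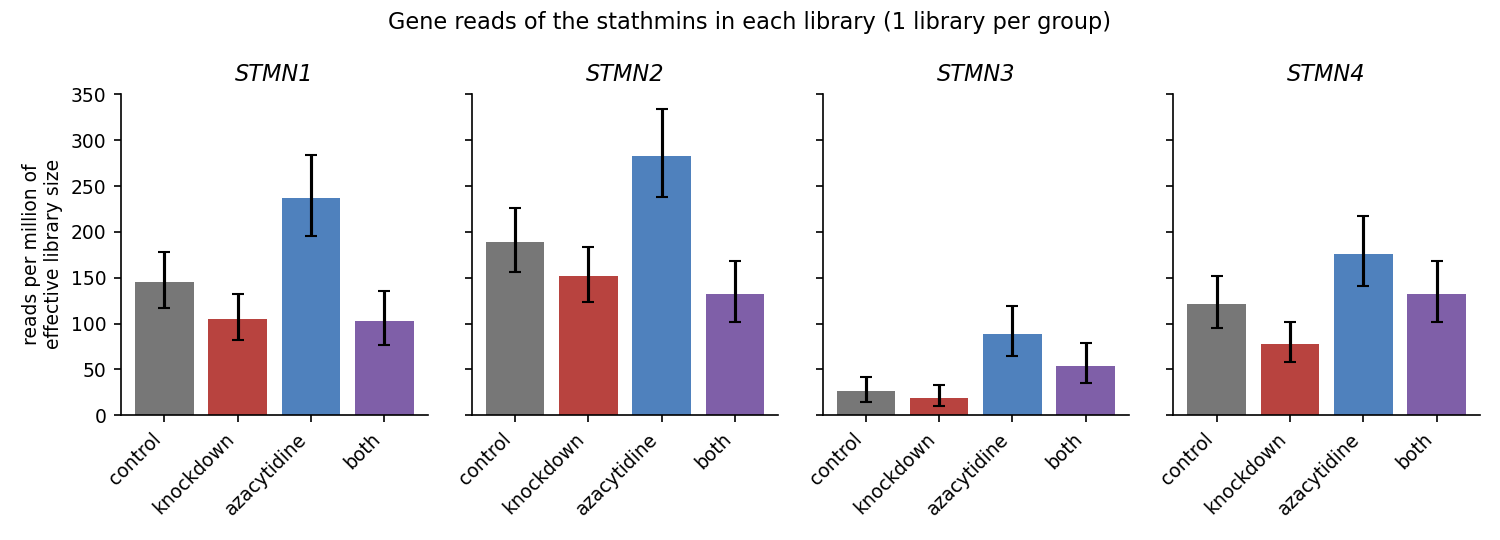
Bars give the CPM (reads scaled to effective library size) of STMN1, STMN2, STMN3 and STMN4 in each of the 4 libraries, and whiskers give exact 95% Poisson intervals, which cover counting error only. The azacytidine bar is the highest in each panel, and within each library the STMN3 bar, between 18.97 and 89.04, is the lowest.

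STMN2 (ENSG00000104435.14) lies on chromosome 8, 79611117 to 79666158 of hg38, on the plus strand. It had 117 reads in the control library, 104 in the knockdown, 140 in the azacytidine library and 64 with both. In CPM these were 189 (95% Poisson interval 156 to 226), 152 (124 to 184), 283 (238 to 334) and 132 (102 to 169). The azacytidine library stood above the others, whose intervals overlapped those of their neighbours in the order control, knockdown, both. In gene reads a difference was called where the Benjamini-Hochberg adjusted p-value over all genes tested was under 0.05 and the log2 ratio was at least 1 in size. The knockdown changed the gene's reads by a log2 ratio of -0.31 without azacytidine (95% interval -0.71 to 0.08, adjusted exact binomial p = 0.314), which is no call. In the presence of azacytidine STMN2 fell by 1.10 on the log2 scale (interval -1.55 to -0.66, adjusted exact p = 1.15e-05), which was called. Whether the knockdown ratio differed between the backgrounds was not tested.

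The annotated transcript had larger knockdown ratios than the gene total. The 5-exon transcript ENST00000220876.12, 1903 bases long, encodes the full stathmin-2 protein and had 77 reads in the control, 19 in the knockdown, 87 in the azacytidine library and 13 with both. Each library with the TDP-43 guide lay far below the library without it. The knockdown gave a log2 ratio of -2.08 without azacytidine (interval -2.92 to -1.37, adjusted exact p = 5.11e-08) and -2.53 with it (-3.55 to -1.73, adjusted exact p = 2.70e-10). Both were called lower, while 1.82% and 1.76% of 15607 transcripts were called lower in these comparisons and 0.179% in both. Counting only reads that span the whole transcript, the numbers were 53, 3, 56 and 7. Reads assigned to this transcript alone numbered 77, 17, 81 and 11. The 2116 transcripts within 25% of its length had median log2 ratios of -0.30 and -0.13 for the knockdown, and 2.08% and 1.94% of them were called lower. Transcripts of this length thus had slightly lower ratios in the knockdown libraries, with medians far above the ratios of this transcript. The part of library completeness in its ratio was not tested. With azacytidine alone the level changed by a log2 ratio of 0.38 (adjusted exact p = 0.367), and with azacytidine added to the knockdown by -0.07 (adjusted exact p = 1).

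The truncated transcript, BambuTx9249 in the deposited annotation, has 2 exons and 3096 bases. Its first exon starts 25 bases upstream of the annotated start and ends at the same donor site, at position 79611214. Its second exon runs from 79616822 to 79619794, or 2973 bases, and begins 5607 bases after exon 1 in an intron of 25587 bases. Annotated exon 2 follows 17007 bases further on. The transcript therefore shares with the full one only exon 1 and lacks exons 2 to 5, which hold nearly the whole coding sequence.

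**Figure D2:**
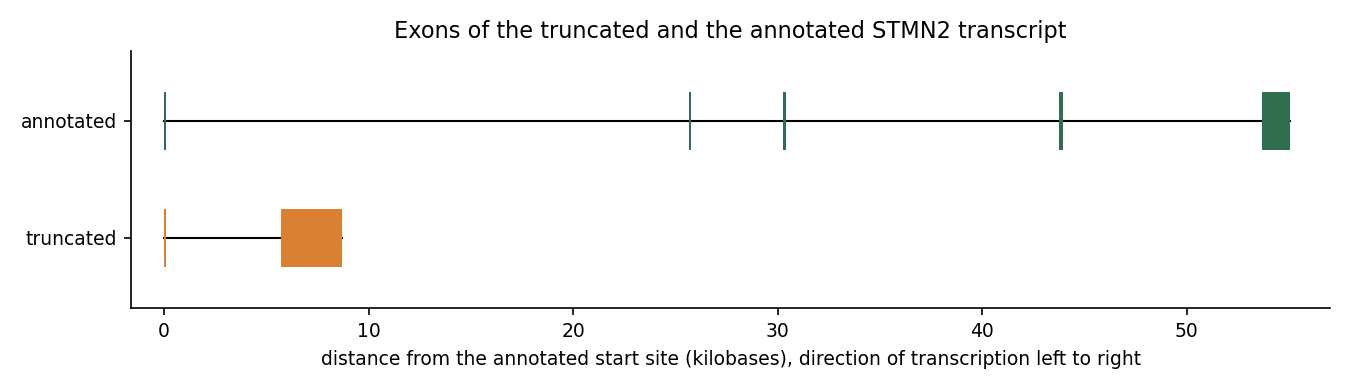
Exons (boxes) and introns (lines) of the annotated 5-exon and the truncated 2-exon STMN2 transcript are drawn to scale by distance from the annotated start site, in kilobases. The second exon of the truncated transcript, 2973 bases long, lies within the first intron of the annotated one.

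Reads of the truncated transcript numbered 0 in the control library, 12 in the knockdown, 2 in the azacytidine library and 5 with both. Among STMN2 reads assigned to any transcript they were 0 of 80, which allows a share of up to 3.75%, then 12 of 31 (38.7%, 95% Wilson interval 23.7 to 56.2), 2 of 93 (2.15%, 0.592 to 7.51) and 5 of 18 (27.8%, 12.5 to 50.9). The libraries with the TDP-43 guide held shares above those of both libraries without it. The share rose by 38.7 percentage points with the knockdown alone (Fisher's exact test adjusted over 169 unannotated exon loci, p = 3.02e-06) and by 25.6 points in the presence of azacytidine (adjusted exact p = 0.0159). The locus reached the minimum of 10 reads only through the libraries with the guide, and its annotation is pooled over all 4 libraries. Its entry into the test thus rests on the libraries where it is high, which the p-values do not allow for. A locus was called from an adjusted p under 0.05 and a change of at least 10 points, and 7.69% and 6.51% of the loci were called higher in these comparisons, 4.73% in both. Azacytidine alone moved the share by 2.15 points (adjusted exact p = 1), and azacytidine added to the knockdown by -10.9 points (adjusted exact p = 0.888). Full-length reads of the truncated form were 0, 6, 0 and 4. Over all gene reads as the denominator, the rise was 11.5 points without azacytidine and 6.38 points with it, and the latter was no call. Intervals and limits cover counting error only.

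Annotated STMN2 transcripts other than the main one were nearly absent. ENST00000518491.1, which starts at a different first exon, had 2, 0, 3 and 0 reads, and ENST00000518111.5 had 1, 0, 1 and 0. As a share of transcript reads, the 5-exon form went from 96.3% to 61.3% without azacytidine, a fall called by Fisher's exact test over 15495 transcripts (adjusted p = 0.000400; 3.47% of transcripts were called lower in share). In the presence of azacytidine it went from 93.5% to 72.2%, which was no call (adjusted exact p = 0.199).

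Most STMN2 reads in the libraries with the TDP-43 guide were assigned to no transcript at all. Such reads numbered 37 of 117 in the control (31.6%, Wilson interval 23.9 to 40.5), 73 of 104 in the knockdown (70.2%, 60.8 to 78.1), 47 of 140 in the azacytidine library (33.6%, 26.3 to 41.7) and 46 of 64 with both (71.9%, 59.9 to 81.4). Both libraries with the guide lay above both without it, and the intervals did not overlap. The difference was 38.6 points without azacytidine (Fisher's exact test adjusted over 8143 genes, p = 1.18e-06) and 38.3 points with it (adjusted exact p = 5.53e-05). This test was chosen because earlier results of these data showed fewer transcript reads than gene reads for STMN2. The p-values of STMN2 do not allow for that choice. Over all genes tested, the median difference was 3.51 and 4.88 points, and 7.72% and 4.96% of genes were called higher, 0.884% in both comparisons. A larger difference than that of STMN2 was seen in 202 and 269 genes. With azacytidine the share moved by 1.95 and 1.68 points, and neither was a call. Because these reads are counted for the gene and not for a transcript, the log2 ratio of STMN2 for the knockdown without azacytidine was -1.45 from summed transcript reads, against -0.31 from gene reads. Where in the gene these reads lie cannot be read from count tables.

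**Figure D3:**
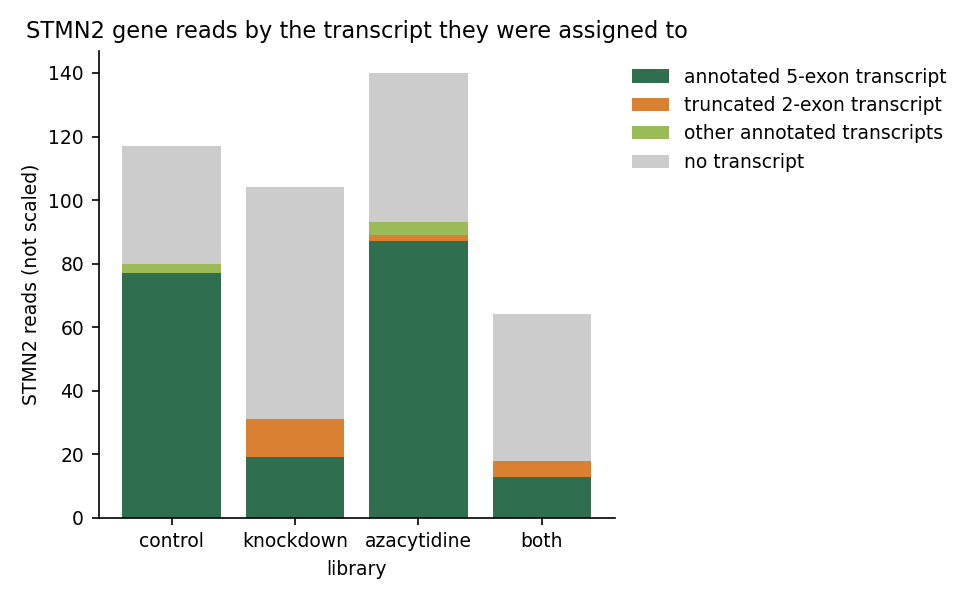
Stacked bars give STMN2 gene reads in each library, not scaled to depth, split into the annotated 5-exon transcript, the truncated transcript, other annotated transcripts and reads assigned to no transcript. The 5-exon part falls from 77 to 19 reads and from 87 to 13 with the TDP-43 guide, while the part without a transcript is 73 of 104 and 46 of 64 reads there.

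STMN1 (ENSG00000117632.23, chromosome 1, 25884181 to 25906991, minus strand) had 90, 72, 117 and 50 reads in the order of libraries given for STMN2. In CPM these were 145 (Poisson interval 117 to 178), 105 (82.2 to 132), 237 (196 to 284) and 103 (76.6 to 136). The azacytidine library was again above the rest, and the knockdown and combined libraries had overlapping intervals. The knockdown alone gave a log2 ratio of -0.46 (interval -0.93 to -0.00, adjusted exact p = 0.169), no call. In the presence of azacytidine STMN1 fell by 1.19 on the log2 scale (interval -1.71 to -0.71, adjusted exact p = 2.18e-05), which was called. STMN1 and STMN2 were the stathmins called lower there, 2 of 4, against 3.27% of all 13789 genes. No stathmin was called lower without azacytidine, where 2.57% of genes were, and none in both comparisons, where 0.305% were. None was called higher with the knockdown, against 5.98% and 3.71% of genes. From reads assigned to 1 transcript alone, the STMN1 ratio in the presence of azacytidine was -0.72 and no call.

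In all, 8 transcripts of STMN1 had reads. The most abundant of them in the control, ENST00000455785.7 (1443 bases), encodes the cytosolic protein and had 30 reads in the control, 12 in the knockdown, 66 in the azacytidine library and 11 with both. It was lowest with the TDP-43 guide and highest with azacytidine alone. The log2 ratio for the knockdown was -1.38 without azacytidine (interval -2.52 to -0.41, adjusted exact p = 0.0474) and -2.37 with it (-3.49 to -1.49, adjusted exact p = 3.82e-07), both called. Azacytidine alone raised it by a log2 ratio of 1.33 (0.70 to 2.01, adjusted exact p = 0.000494), a call made for 3.06% of transcripts in that direction, and azacytidine added to the knockdown changed it by 0.34 (adjusted exact p = 0.878). In full-length reads it had 15, 4, 41 and 7, and there neither the fall without azacytidine nor the rise was a call (adjusted exact p = 0.800 and 0.0636). From uniquely assigned reads the ratio without azacytidine was -1.61 and no call (adjusted exact p = 0.325). The 935 transcripts within 25% of its length had median knockdown ratios of -0.33 and -0.23, and 2.35% and 2.78% of them were called lower. With azacytidine alone their median ratio was 0.42, against -0.003 for all transcripts, and 48 of the 935 were called higher. The part of length in the rise of the STMN1 form was not tested.

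A second STMN1 form moved the other way. ENST00000465604.1 is annotated as a processed transcript without a coding sequence and keeps an intron of 1958 bases (chr1:25901683-25903640, minus strand) within exon 3, of 2323 bases. It had 4 reads in the control, 12 in the knockdown, 3 in the azacytidine library and 14 with both. Its share of STMN1 transcript reads was 5.88% (Wilson interval 2.31 to 14.2), 25% (14.9 to 38.8), 3.19% (1.09 to 8.97) and 36.8% (23.4 to 52.7). Both libraries with the TDP-43 guide were above both without it. The rise was 33.7 points in the presence of azacytidine (adjusted exact p = 0.000111), which was called, and 19.1 points without it (adjusted exact p = 0.0653), which was not. This form reached the minimum of 10 reads for the test only through the libraries with the guide, which the p-values do not allow for. In these comparisons 2.31% and 3.49% of 15495 transcripts were called higher in share. In level, the intron-holding form had log2 ratios of 1.38 without azacytidine and 2.21 with it, which were no calls (adjusted exact p = 0.392 and 0.0942), while the main form that shares the denominator fell. Full-length reads of it were 1, 3, 1 and 3. The main form's share was 44.1%, 25%, 70.2% and 28.9%, and it fell by 41.3 points with the knockdown under azacytidine (adjusted exact p = 0.00149) and rose by 26.1 points with azacytidine alone (adjusted exact p = 0.0247). From full-length reads these changes were -29.5 and 25.2 points and neither was a call, and from uniquely assigned reads the rise was 28.3 points and no call. In share, 2.14% of transcripts were called lower in the former comparison and 2.66% higher in the latter.

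The 5′ edge of the retained intron is shown because it is where the spliced and the intron-holding STMN1 form part. It was read from the GENCODE 29 sequence of this transcript, on the minus strand of GRCh38 and 5′ to 3′, with bases that are exonic in the spliced form in capitals and the intron in lower case. It covers chr1:25903571-25903670.

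5′ edge of the retained intron: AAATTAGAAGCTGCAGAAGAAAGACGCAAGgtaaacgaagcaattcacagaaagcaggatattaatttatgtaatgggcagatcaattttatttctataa

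The intron begins with GT, as introns usually do. TDP-43 binds runs of UG, so the intron was searched for TGTGTG on both strands. The motif occurred 0 times on the transcript strand and 2 times on the other. For background, 5775 windows of the same length were taken, each the first 1958 bases of a transcript annotated as a retained-intron type. Of these, 58.6% held the motif on the transcript strand and 44.7% on the other. Such windows start at the transcript's 5′ end and can hold exon as well as intron bases, unlike the intron searched. Such a search describes these letters only.

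The remaining STMN1 forms had at most 13 reads in a library. BambuTx106, the unannotated form, has a first exon of 1139 bases and had 13, 7, 9 and 4 reads. ENST00000399728.5 had 13, 5, 9 and 2, ENST00000426559.7, with a distal last exon, 2, 4, 4 and 2, ENST00000374291.5 had 4, 4, 1 and 0, and ENST00000357865.6 had 2, 4, 1 and 1. No share of BambuTx106, ENST00000399728.5 or ENST00000426559.7 was called in any comparison, and the remaining ones were too low to be tested. Transcripts that begin at the main start exon made up 52.9% of STMN1 transcript reads in the control, 58.3% in the knockdown, 77.7% in the azacytidine library and 71.1% with both. The azacytidine libraries were thus the higher ones, with overlapping Wilson intervals in the pair that carries the knockdown. Reads without a transcript made up 24.4%, 33.3%, 19.7% and 24.0% of STMN1 reads and were called in no comparison.

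**Figure D4:**
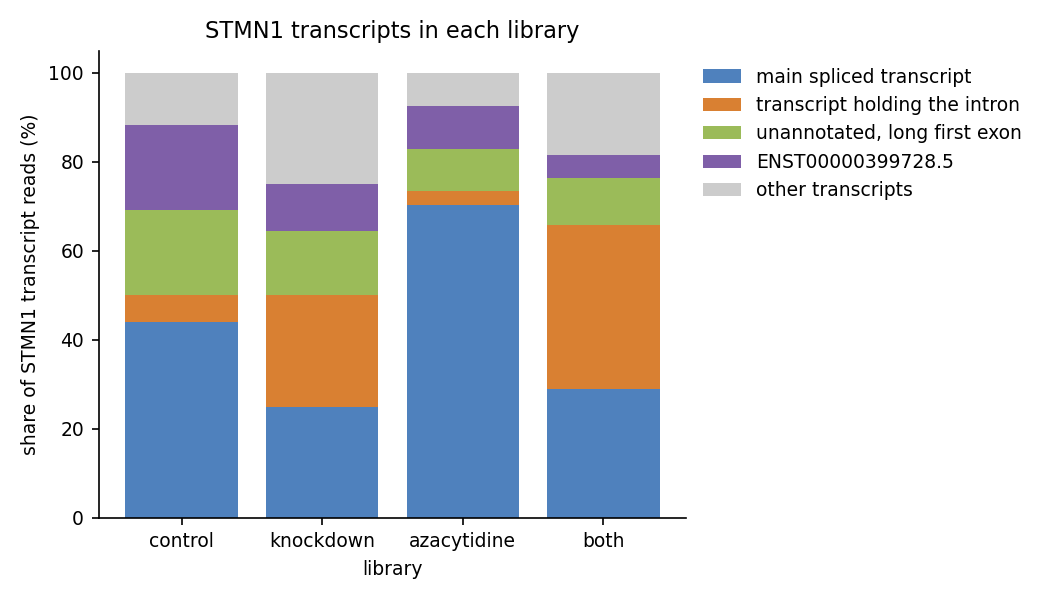
Stacked bars give the share of STMN1 transcript reads, in percent, held by each form in the 4 libraries, from 68, 48, 94 and 38 reads. The main form falls from 70.2% to 28.9% and the intron-holding form rises from 3.19% to 36.8% between the azacytidine library and the one with both treatments.

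STMN3 was higher in both azacytidine libraries than in the libraries without the drug. STMN3 (ENSG00000197457.10, chromosome 20, 63639705 to 63657682, minus strand), which encodes the membrane-bound SCLIP protein, had 16 reads in the control, 13 in the knockdown, 44 in the azacytidine library and 26 with both. In CPM this was 25.8 (Poisson interval 14.8 to 41.9), 18.97 (10.1 to 32.4), 89.0 (64.7 to 120) and 53.6 (35.0 to 78.6). Each azacytidine library lay above its own control, and the intervals did not overlap within a pair. STMN3 rose by a log2 ratio of 1.76 without the knockdown (interval 0.93 to 2.71, adjusted exact p = 0.000116) and of 1.47 with it (0.49 to 2.58, adjusted exact p = 0.00752). It was the only stathmin called in gene reads with azacytidine, 1 of 4 in each comparison, where 6.58% and 9.11% of 13789 genes were called higher and 2.48% in both. No stathmin was called lower with azacytidine, against 9.98% and 16.4% of genes, and 6.17% in both. With the knockdown its ratios were -0.43 (adjusted exact p = 0.725) and -0.72 (adjusted exact p = 0.205).

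Some of the additional STMN3 reads were assigned to no transcript. Such reads were 0 of 16 in the control, which allows up to 18.8%, 1 of 13 in the knockdown, 19 of 44 in the azacytidine library (43.2%, Wilson interval 29.7 to 57.8) and 8 of 26 with both (30.8%, 16.5 to 49.99). Both azacytidine libraries held more of them. The difference of 43.2 points without the knockdown was called (adjusted exact p = 0.0248; 1.78% of 8143 genes were called higher) and that of 23.1 points with it was not (adjusted exact p = 0.566). STMN3 reached the minimum mean of 20 gene reads only through the azacytidine libraries, which these p-values do not allow for. From summed transcript reads the azacytidine ratios were 0.83 and 1.02, and from reads of 1 transcript alone -0.10 and 1.502, none of them calls. A gene on the opposite strand that overlaps STMN3 exons had 1, 1, 6 and 2 reads, and without a statement on strand in the counting the STMN3 total is uncertain by about that much. In the same libraries, 12 and 11 of the 13 tested markers of proliferating cells and 4 and 5 of the 6 tested progenitor markers were called lower, against 9.98% and 16.4% of all genes. Their part in the STMN3 rise was not tested.

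STMN3 transcripts start at either of 2 first exons. ENST00000370053.3, from the upstream start, had 10, 7, 18 and 9 reads, and ENST00000540534.5, from the downstream start, had 6, 5, 7 and 9. The upstream form held between 50% and 72.0% of the reads, with overlapping intervals in all 4 libraries. STMN3 had too few transcript reads for the test of shares, and neither level was called.

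RefSeq start windows are shown for STMN1 and STMN3, which had a call higher with azacytidine in the main transcript and in gene reads respectively, because this drug acts on CG methylation. The RefSeq table (GRCh38.p14) has an entry for 2 of the 4 genes, with 3 windows for STMN1, of which the one at the start of its main transcript is printed. Each sequence runs 5′ to 3′ on the minus strand from 250 bases before to 50 bases after a start site, with each CG in capitals. The STMN1 window, chr1:25906370-25906669, surrounds the start of ENST00000455785.7, and the STMN3 window, chr20:63652717-63653016, that of ENST00000540534.5. This STMN3 form, from the downstream start, had 6, 5, 7 and 9 reads. The upstream form ENST00000370053.3, with 10, 7, 18 and 9 reads, starts outside the printed window.

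STMN1 start window: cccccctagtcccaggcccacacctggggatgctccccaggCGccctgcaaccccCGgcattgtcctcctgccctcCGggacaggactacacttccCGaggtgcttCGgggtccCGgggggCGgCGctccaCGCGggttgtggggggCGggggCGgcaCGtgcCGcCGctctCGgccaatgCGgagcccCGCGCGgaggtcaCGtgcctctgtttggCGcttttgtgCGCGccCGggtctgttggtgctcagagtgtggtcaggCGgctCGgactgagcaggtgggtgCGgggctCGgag
STMN3 start window: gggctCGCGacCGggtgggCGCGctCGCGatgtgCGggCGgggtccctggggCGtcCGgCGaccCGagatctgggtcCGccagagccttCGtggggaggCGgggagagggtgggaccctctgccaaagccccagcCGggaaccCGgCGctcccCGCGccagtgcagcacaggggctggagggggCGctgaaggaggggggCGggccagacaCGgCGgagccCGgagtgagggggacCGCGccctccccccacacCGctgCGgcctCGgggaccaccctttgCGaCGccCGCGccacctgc

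The motif CG, which reads the same on both strands, occurred 29 times in the printed STMN1 window and 35 times in the STMN3 window. The other STMN1 windows held 19 and 31. The median over 35116 RefSeq windows of this length was 14, and 24.2% and 14.1% of them held at least as many as the printed pair. All STMN1 and STMN3 windows in the table were above the median, and the count says nothing of their methylation, which was not analysed here.

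STMN4 (ENSG00000015592.17, chromosome 8, 27235308 to 27258420, minus strand), which encodes the neuronal protein RB3, had 75 reads in the control, 53 in the knockdown, 87 in the azacytidine library and 64 with both. In CPM this was 121 (Poisson interval 95.2 to 152), 77.3 (57.9 to 101), 176 (141 to 217) and 132 (102 to 169). The azacytidine library was highest and the knockdown library lowest, and neighbours in this order overlapped. Azacytidine gave log2 ratios of 0.54 (adjusted exact p = 0.0722) and 0.77 (adjusted exact p = 0.0171), and the knockdown -0.64 (adjusted exact p = 0.0765) and -0.41 (adjusted exact p = 0.319). None reached the 2-fold limit. STMN4 reads without a transcript made up 13.3%, 13.2%, 24.1% and 18.8%, with no call.

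STMN4 transcripts differ mainly by 2 optional exons of 81 and 54 bases. ENST00000265770.11, with neither, had 23, 9, 24 and 16 reads, and ENST00000350889.9, with the 81-base exon, 20, 14, 13 and 11. The unannotated BambuTx5256, which holds the 54-base exon, had 15, 13, 21 and 15, and ENST00000523048.5, with both exons, 6, 10, 8 and 9. The 81-base exon was in 41.5%, 52.2%, 31.8% and 38.5% of STMN4 transcript reads and the 54-base exon in 32.3%, 50%, 42.4% and 46.2%. All 4 forms were thus present in every library, and no share was called in any comparison.

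Across the family, all 8 knockdown ratios of gene reads were below 0, in 4 of 4 genes and in both backgrounds. The exception among other ways of counting was STMN3 in the presence of azacytidine, at 0.41 from reads of 1 transcript alone. Among all 13789 genes, 23.4% had a ratio below 0 in both, and 34.2% under total counts. In transcript reads, the 2116 transcripts near the main STMN2 form in length had median knockdown ratios of -0.30 and -0.13. For the 935 near the main STMN1 form they were -0.33 and -0.23. The part of length in the signs of the family was not tested. Each azacytidine comparison shares a library with each knockdown comparison. With azacytidine alone all 4 genes had ratios above 0. In the presence of the knockdown STMN3 and STMN4 stayed above 0, while STMN2 was at -0.20 (adjusted exact p = 0.555) and STMN1 at -0.02 (adjusted exact p = 1). The STMN1 sign in that comparison turned with the scaling, to 0.036 with DESeq2 size factors and 0.16 with total counts. From full-length reads the azacytidine ratios of STMN2 were -0.0045 and 0.42. Additive models over the 4 libraries, which use the interaction as error, gave knockdown log2 ratios between -0.83 and -0.53 with edgeR, none of them calls (adjusted p between 0.512 and 0.700). Their azacytidine ratio for STMN3 was 1.64 with edgeR (adjusted p = 0.0483) and 1.65 with DESeq2 (adjusted p = 0.601).

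**Figure D5:**
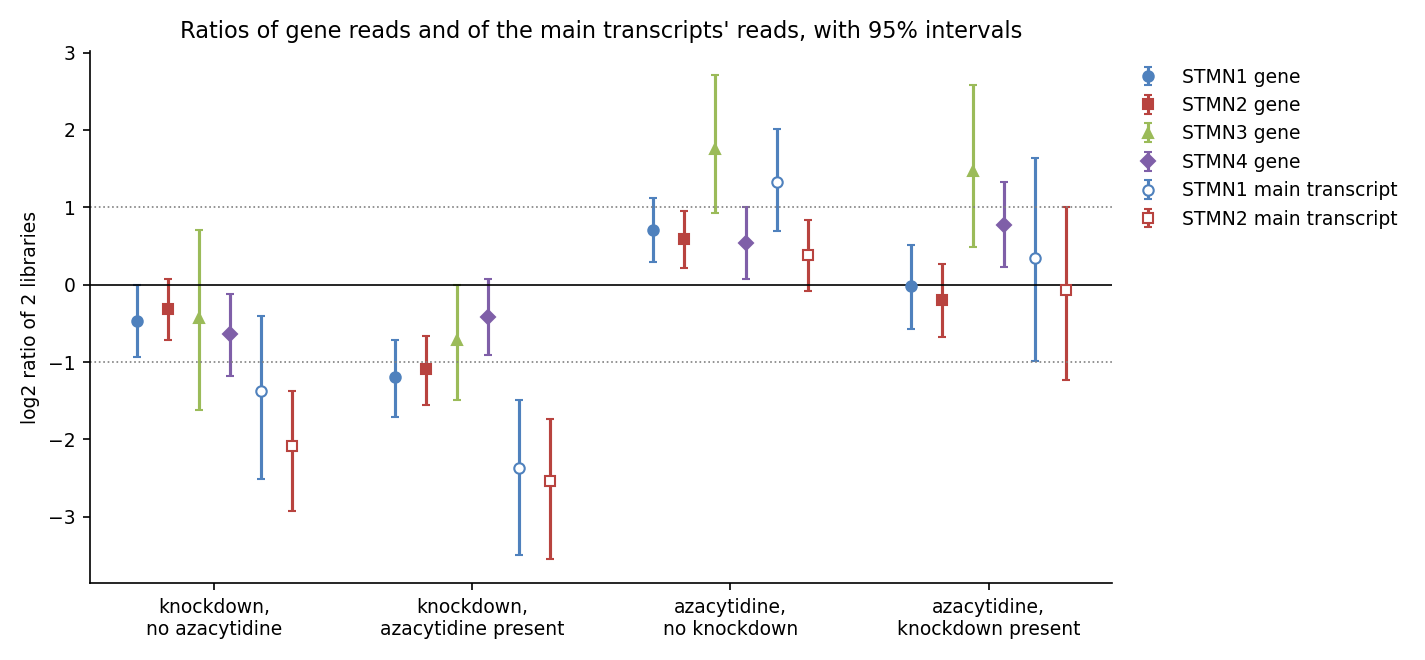
Points give log2 ratios between 2 libraries, with 95% intervals, for the gene reads of the 4 stathmins (filled) and for the main transcripts of STMN1 and STMN2 (open), in the 4 comparisons. Dotted lines mark the 2-fold limit. The main transcripts of STMN1 and STMN2 lie between -1.38 and -2.53 with the knockdown, below the gene-level points between -0.31 and -1.19.

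Genes with the most similar pattern of gene reads were sought among the 3541 genes whose mean reached 50 reads. Similarity was the distance between centred log2 levels over the 4 libraries. For STMN2 the gene reads include those assigned to no transcript, 73 of 104 in the knockdown library and 46 of 64 with both treatments. The nearest genes to STMN2 were HSPA8, a chaperone of the cytosol (distance 0.09), SKP1, a subunit of ubiquitin ligases (0.13), and MTCH2, a protein of the outer mitochondrial membrane (0.18). STMN1 was nearest to RTN3, a reticulon of the endoplasmic reticulum (0.19), then to STMN2 (0.19) and HSPA8 (0.20). HSPA8 has processed copies in the genome, so its counts are uncertain. A pattern over 4 libraries is a loose description. STMN3 was nearest to SLC3A2, the heavy chain of amino acid transporters (0.27), MLLT11 (0.33) and DPP7, a lysosomal peptidase (0.36). MLLT11 had 34, 30, 126 and 66 reads against 16, 13, 44 and 26 of STMN3. STMN4 was nearest to PPP2R3C, a phosphatase subunit (0.07), NHLH2, a neuronal transcription factor (0.08), and BTBD10 (0.09).

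Several genes of tubulin, the protein that stathmins bind, were also called lower with the knockdown. The 16 tubulin genes summed to 714 reads in the control, 449 in the knockdown, 738 in the azacytidine library and 369 with both. Of the 13 tested, 2 were called lower and 0 higher without azacytidine, and 4 lower and 0 higher with it. Of all 13789 genes, 2.57% and 3.27% were called lower and 5.98% and 3.71% higher. The median log2 ratios of the tubulins were -0.59 and -0.79, against 0.13 and 0.03 for all genes. TUBA1A, the main alpha-tubulin of young neurons, had 252 and 118 reads without azacytidine (log2 ratio -1.24, adjusted exact p = 2.56e-13) and 248 and 89 with it (-1.45, adjusted exact p = 3.82e-15). TUBA1B fell from 58 to 25 reads (-1.34, adjusted exact p = 0.00107) and from 28 to 8 (-1.72, adjusted exact p = 0.0174). Both are near-identical in sequence, as are TUBB2A and TUBB2B, so their counts are uncertain. TUBB2A had 19, 22, 36 and 9 reads and was called lower with the knockdown under azacytidine (-1.91, adjusted exact p = 0.00183). The fourth was TUBB2B (-1.27), named after its value was seen. Azacytidine gave 3 higher calls and 1 lower among tubulins without the knockdown, and 1 higher in its presence, where 6.58% and 9.11% of genes were called higher and 9.98% and 16.4% lower. TUBB2A rose by 1.23 without the knockdown (adjusted exact p = 0.0161), beside TUBB4A (1.25) and TUBB2B (1.01), both named after their values were seen. Among the others, TUBB6 fell by 1.59 without the knockdown (adjusted exact p = 0.0434), and TUBG2, a gamma-tubulin of microtubule nucleation, rose by 1.77 with it (adjusted exact p = 0.000647).

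Other microtubule proteins of neurons gave 0 calls among 26 tested in either knockdown comparison, with medians of 0.26 and 0.07. Over all genes 5.98% and 3.71% were called higher and 2.57% and 3.27% lower, so a count of 0 is close to the background. MAP2, which stabilises dendritic microtubules, had 540, 761, 319 and 162 reads in the order of libraries used above. Its knockdown ratios were 0.35 without azacytidine (adjusted exact p = 0.000334) and -0.95 with it (adjusted exact p = 6.22e-10), both under the 2-fold limit. With azacytidine 1 member was called higher without the knockdown, MAPRE3, a plus-end binding protein (1.26, adjusted exact p = 0.0308), and 2 were called higher and 2 lower with it, beside 9.11% and 16.4% of all genes and 6.58% called higher without it. The lower ones were MAP2 (-1.73, adjusted exact p = 2.25e-51) and MAP7, which had 25 and 1 reads (-3.59, adjusted exact p = 0.000194). The higher ones, named after their values were seen, were MAP1S (1.07) and GAP43 (1.10).

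Among 22 genes of tubulin folding and modification, SIRT2 and TBCB were called higher with azacytidine in both backgrounds. SIRT2, a tubulin deacetylase, had 12 control reads and 41 under azacytidine, then 20 and 53 in the pair with the knockdown. TBCB, a folding cofactor, had 11 and 23, then 6 and 16. In this list 2 and 6 members were called higher and 0 and 1 lower with azacytidine, with medians of 0.65 and 0.35 against 0.06 and -0.09 for all genes. Over all genes 6.58% and 9.11% were called higher and 9.98% and 16.4% lower, so the 2 of 22 is close to the background. HDAC6, which also deacetylates tubulin, rose from 78 to 169 reads with azacytidine in the presence of the knockdown (1.61, adjusted exact p = 9.13e-16), and TTLL1, a tubulin glutamylase, from 16 to 36 (1.65, adjusted exact p = 0.000414). For the knockdown there were 0 calls without azacytidine, and under the drug 1 in each direction, where 3.71% of genes were called higher and 3.27% lower. The lower one was TBCA, a beta-tubulin cofactor, with 11 reads in the azacytidine library and 0 with both. The higher one was TTLL5 (1.45), and the member lower with azacytidine was TTLL7 (-1.22), both named after their values were seen.

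Of 13 severing and depolymerising proteins, KIF18A, KIF18B and KIF2C were called lower with azacytidine in both backgrounds. These kinesins act on the mitotic spindle. KIF18A had 41 and 5 reads, then 55 and 4, KIF18B 28 and 1, then 46 and 0, and KIF2C 50 and 4, then 55 and 18. The severing enzymes FIGN and FIGNL1 were called lower with azacytidine in the presence of the knockdown (-1.53 and -1.78) and had ratios of -0.99 and -0.14 without it. With azacytidine 1 member was called higher without the knockdown, KIF19 (1.63), against 6.58% of all genes. In its presence 2 were called higher, against 9.11%, among them FIGNL2 (1.06), named after its value was seen. Some called members are not named here. In all, 3 and 6 members were called lower with azacytidine, against 9.98% and 16.4% of all genes, with medians of -0.35 and -0.99, and with the knockdown 0 were called without azacytidine and 1, KIF2C, was called higher with it (2.07), against 3.71% of genes. Markers of proliferating cells fell in the same libraries, as given above, and their part was not tested.

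Among 24 kinases and phosphatases that act on stathmins or their pathway, CDK1, a cell cycle kinase that phosphorylates stathmin-1, was lower with azacytidine in both backgrounds, from 50 to 5 reads and from 53 to 0. PRKACA, the catalytic subunit of protein kinase A, was higher in both, from 27 to 46 reads each time (1.08 and 1.26, adjusted exact p = 0.0134 and 0.00168). With azacytidine 2 and 3 members were called higher and 1 and 3 lower, near the 6.58% and 9.11% of all genes called higher and the 9.98% and 16.4% called lower. MAPK3 rose from 13 to 44 reads with azacytidine in the presence of the knockdown (2.22, adjusted exact p = 7.37e-07), and MAPK9, a JNK kinase, fell from 69 to 13 (-1.86, adjusted exact p = 9.70e-06). CDK5, a neuronal kinase, rose from 7 to 20 with azacytidine alone (1.78, adjusted exact p = 0.0182) and fell to 5 with the knockdown added (-1.87, adjusted exact p = 0.0425). The knockdown gave 0 calls without azacytidine, where 5.98% of all genes were called higher and 2.57% lower. Under the drug it gave 1 in each direction, where 3.71% of all genes were called higher and 3.27% lower. The higher one was MAP2K7 (1.17), which with UHMK1 (-1.14) and its own azacytidine ratio of 1.34 completes the calls, both genes named after their values were seen. Of 5 palmitoyl transferases, which anchor STMN2 to STMN4 to membranes, ZDHHC8 was called higher with azacytidine alone (6 to 16 reads, 1.67, adjusted exact p = 0.0440). ZDHHC3 was called lower with the knockdown under azacytidine (48 to 22 reads, -1.08, adjusted exact p = 0.0308). Of all genes, 6.58% were called higher in the former comparison and 3.27% lower in the latter.

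STMN2 belongs to a list of 28 genes reported to carry TDP-43-dependent exons, 27 of them tested. In gene reads the knockdown gave 0 calls without azacytidine, with a median of 0.09, and under the drug 1 higher and 2 lower, with a median of -0.04, where 3.71% and 3.27% of all genes were called. CELF5, a splicing regulator, was the lowest, with 91 and 6 reads (-3.79, adjusted exact p = 1.24e-17), beside STMN2. Calls with azacytidine were 4 and 6 higher and 0 and 5 lower, where 6.58% and 9.11% of all genes were called higher and 9.98% and 16.4% lower. ACTL6B, IGLON5 and PFKP were higher in both backgrounds, as were 2.48% of all genes. ACTL6B had 5 and 31 reads, then 5 and 17, IGLON5 24 and 43, then 24 and 42, and PFKP 36 and 97, then 36 and 77. XPO4 and MNAT1 were called lower in the presence of the knockdown (-2.12 and -1.63). Named after their values were seen, AGRN (1.45) was the one higher with the knockdown under azacytidine, EPB41L4A (1.15) the fourth higher with azacytidine alone, and G3BP1 (-1.50) and RSF1 (-1.05) the further ones lower with azacytidine in the presence of the knockdown.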

How the data were processed

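The 4 libraries were grouped by their treatment label, 1 per group. The column names in the file headers give minimap2 as aligner and hg38 as build. Bambu, a tool that extends an annotation and counts long reads, is named in the deposited annotation. The build is also given in the submitters' processing notes, and program versions are not given in the sources used here. The deposited gene and transcript tables hold each feature's estimated count, in which a read compatible with several transcripts is divided, and a further estimated count of full-length reads. The deposited table of uniquely assigned reads holds whole counts. The deposited CPM table was not used.

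All gene counts were even numbers to within 0.00031, so 2 counts were taken as 1 read, all counts were halved and the result was rounded to whole reads. The labels do not say why values are even. The tests had been designed with this known.

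Gene and transcript reads of 2 libraries were compared by an exact two-sided binomial test, with effective library sizes from TMM (edgeR 4.0.16, R 4.3.3), over 13789 genes or 15607 transcripts with a mean of at least 5 reads. Ratios used a pseudocount of 0.5 reads, and their 95% intervals are exact. For shares, Fisher's exact test (two-sided) was used. It ran over 15495 transcripts with at least 10 reads, from genes with a mean of at least 20 transcript reads. It also ran over 169 unannotated exon loci with at least 10 reads, and over 8143 genes with a mean of at least 20 gene reads. P-values were adjusted by Benjamini-Hochberg over each whole table, and the 2 comparisons of each treatment share no library. A call needed an adjusted p-value under 0.05 and a log2 ratio of at least 1 or a change of at least 10 percentage points. The test of transcript levels was added after the data were seen. Additive models in edgeR and in DESeq2 1.42.0 were alternatives. The tests were checked on simulated data.

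The genes, the gene lists and the tests were chosen with earlier results of these data known. The rule for names took the 4 stathmins and TARDBP, each unannotated stathmin transcript with a read and each annotated one with at least 5 reads over the libraries, the 3 genes nearest in pattern, and list members called in both comparisons of a treatment with at most 3 others. Symbols were found for 60555 of 77187 annotated gene identifiers. No genome sequence was used, and sequence is shown only from GENCODE 29 transcripts and the RefSeq table. Some items on the lists are not reported here.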

Additional observations from a re-analysis of the deposited data

Results flagged for a closer look

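With azacytidine, the ratios of STMN1 and STMN2 had opposite signs in the backgrounds. STMN1 had a log2 ratio of 0.70 without the knockdown and -0.02 with it, a difference of -0.73, and STMN2 had 0.59 and -0.20, a difference of -0.78. The annotated STMN2 transcript ENST00000220876.12 had 0.38 and -0.07, a difference of -0.45. These differences were not tested, since 1 library per group leaves them no error of their own. The ratios of STMN1 and of this transcript in the presence of the knockdown are near 0 and turn above 0 under total counts.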

How the results depend on the processing

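Depth limits the precision, with at most 140 reads per stathmin gene and library, and no group has a replicate. Of 592 values under alternatives, which include those of TARDBP, 526 were counted as the same. For a test this means that it kept its direction and its side of the threshold. For a count of calls over all genes it means a count close to the main one. For a list median it means the same sign and a shift within the spread of the list's ratios. No paired analysis was possible because every group has 1 library, so the groups share fewer than 2 replicate numbers, and no library was left out, since each is the whole of its group. STMN3 has no value with a minimum of 50 reads. The causes of the changes that follow were not tested unless the alternative itself uses fewer reads or genes.

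With sums of transcript counts the STMN2 knockdown ratio without azacytidine became -1.45, with uniquely assigned counts -1.56 and with full-length counts -2.49, all now calls. The STMN1 azacytidine ratio with the knockdown turned to 0.036 (DESeq2 size factors), 0.16 (total counts), 0.13 (transcript sums), 0.73 (uniquely assigned) and 0.14 (full-length). The STMN1 knockdown ratio with azacytidine was -0.72 from uniquely assigned counts, no longer a call. For STMN3, transcript sums gave azacytidine ratios of 0.83 and 1.02 and uniquely assigned counts -0.10 and 1.502, none of them calls, and a knockdown ratio with azacytidine of 0.41. The additive DESeq2 model gave STMN3 1.65 with azacytidine, no longer a call. STMN2 azacytidine ratios from full-length sums were -0.0045 and 0.42. For its annotated transcript ENST00000220876.12 they were -0.024 and 1.24, and 0.11 with the knockdown under total counts.

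For STMN1 ENST00000455785.7, full-length counts gave levels of -1.71 (knockdown) and 1.32 (azacytidine) and shares of -29.5 points (knockdown with azacytidine) and 25.2 points (azacytidine), and uniquely assigned counts -1.61 and 28.3 points, none of them calls. Without halving, the knockdown share changes of -19.1 points for it, 19.1 for ENST00000465604.1 and -21.3 for ENST00000220876.12 with azacytidine became calls. The truncated STMN2 transcript with azacytidine rose by 28.95 points in uniquely assigned reads, no longer a call over all transcripts, though still one over the loci, and by 6.38 points of all gene reads.

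Signs of uncalled shares turned with full-length counts for BambuTx5256 (-4.04 points), ENST00000350889.9 (12.5) and ENST00000523048.5 (-6.48), and with uniquely assigned counts for BambuTx106 (-0.16), ENST00000426559.7 (-0.49), BambuTx5256 (0.36) and ENST00000350889.9 (7.11). The level of ENST00000370053.3 turned to 0.0081.

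Over all genes, a minimum mean of 20 reads gave 504 higher and 175 lower calls for the knockdown without azacytidine, 542 and 809 for azacytidine alone, 779 and 1373 with the knockdown, and 559 genes lower in both azacytidine comparisons. Total counts gave 504 higher and 587 lower for the knockdown without azacytidine, and 36 and 73 in both knockdown comparisons. The additive edgeR model called 212 genes higher with azacytidine, and 0 higher and 0 lower with the knockdown, where 468 and 288 had an unadjusted p under 0.05 with a 2-fold ratio and DESeq2 called 5 and 6. List medians that turned sign under total counts were those of kinases (-0.14), severing proteins (-0.032), TDP-43 targets (-0.14) and tubulin folding (-0.11) for the knockdown without azacytidine, tubulin folding with it (-0.051), and palmitoyl transferases for azacytidine with the knockdown (0.068).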
